A study of Mus musculus with 2 samples.

Results

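Krt5, Krt14 and Krt15 are keratin genes of the basal layer of stratified epithelia, and their UMI counts were followed through single cells of the mouse anorectal junction. They were chosen by name and were 3 of 31054 features in the normal library and 3 of 32285 in the wounded library. Normal_TZ and Wounded_TZ were each 1 library of FACS-sorted cells, made from a pool of at least 5 C57/BL6J mice carrying K17CreERT2 and the R26R GFP reporter and induced with tamoxifen. In these mice the Krt17 promoter drives the recombinase, and the reporter sequence ZsGreen1 was a feature of the normal library only. The wounded mice had received hot EDTA at the anorectal region, followed by an electric brush to remove rectal crypts near the junction. They were taken 1 week later, and the wound protocol names mice of 2 to 4 months. Each condition therefore had no replicate, and the condition, the library and the Cell Ranger version cannot be told apart.

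Keratins form filaments only as pairs of a type I and a type II protein. Krt5, a type II keratin, pairs with the type I keratins Krt14 and Krt15 in cells that sit on the basement membrane. As such cells leave the basal layer, other keratins such as Krt1 and Krt10 are made, and Krt15 is known in skin as a marker of hair follicle stem cells. The rectum, a simple glandular epithelium, builds its filaments from Krt8 and Krt18 instead. The junction between stratified anal canal and rectum holds a transition zone (TZ) with Krt17-positive cells, which the study followed before and after the wound.

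The deposited tables named 4 groups of cells in the normal library and 6 in the wounded library, 939 and 4147 cells in all. The study formed these groups by clustering the same counts, so each ratio between them below is a description. A further 610 and 1078 cells passed the study's filters but were not in the tables. Median depth of the named cells was 9724 and 10077 UMIs, and median mitochondrial shares were 4.77% and 8.50%. The libraries shared 1 barcode, and none among the filtered cells. The names fitted their markers in part: 9 rectum markers summed to 11499.7 and 9563 CPM in the Rectum clusters, and 6 basal markers to 729 and 1114 CPM in the Basal clusters but to 934 CPM in Anal Canal. Although the labels name epithelial cells, 65 and 192 fibroblast-like cells were found outside the tables. Levels below are UMIs of a gene per 1000000 UMIs of a group (CPM), and since a 3′ library counts each transcript once, levels of different keratins were set side by side without division by length. Ranges in brackets are exact 95% intervals for counting error alone, and the spread between mice is unknown.

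All 3 genes lie on the minus strand of GRCm38 in GENCODE M21. Krt5 (ENSMUSG00000061527) is on chromosome 15 from 101707070 to 101712898 with 9 exons. Krt14 (ENSMUSG00000045545) spans 100203162 to 100207548 of chromosome 11 and Krt15 (ENSMUSG00000054146) spans 100131758 to 100135928 of the same chromosome, each with 8 exons. Close relatives can share reads, and near the 3′ end the longest shared run was that of Krt14 and Krt17. In the last 500 bases of the transcripts, the longest run of bases shared with another of the 49 type I and type II keratin genes was 16 for Krt5 (with Krt4), 22 for Krt15 (with Krt13) and 71 for Krt14 (with Krt17). The 71 bases are coding sequence of exon 6, shown 5′ to 3′ on the minus strand of GRCm38 because a read that lies wholly inside them cannot be assigned to either gene. Capitals mark the bases that differ from Krt14.
Krt14, chr11:100204114-100204184: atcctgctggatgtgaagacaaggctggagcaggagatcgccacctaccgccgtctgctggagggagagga
Krt17, chr11:100257439-100257509: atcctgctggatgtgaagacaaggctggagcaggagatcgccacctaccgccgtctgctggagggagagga
Krt16, chr11:100246616-100246686: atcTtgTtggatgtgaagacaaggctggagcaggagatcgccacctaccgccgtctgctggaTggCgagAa
Krt15, chr11:100132997-100133067: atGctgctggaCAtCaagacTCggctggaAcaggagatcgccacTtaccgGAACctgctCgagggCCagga
Krt16 differed from Krt14 at 5 of these bases and Krt15 at 15, while Krt17 was identical. Over whole coding sequences Krt14 was 86.5% identical to Krt16, 84.1% to Krt17 and 74.2% to Krt15, and Krt15 was nearest to Krt13 with 80.1%. Krt5 was nearest to Krt6a with 81.9%. The stretch ends 319 bases before the end of the Krt14 transcript, and how many reads fell inside it was not tested.

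In the normal library, the anal canal cells held the highest levels of Krt5 and Krt14, and the Basal cells of the TZ held the highest level of Krt15. Krt14 had 11880.4 CPM in Anal Canal (11779 to 11983), 6877 in Suprabasal and 5399.6 in Basal, and it was the second most abundant of all genes in Anal Canal. Krt5 had 3829 CPM in Anal Canal, and Krt15 had 2493 CPM there against 2878 CPM in Basal. The study had filtered the normal Basal cluster further by Lgr5, Lhx2 and Tbx1, because hair follicle cells were mixed into it. In the deposited cells 8 hair follicle markers summed to 404 CPM in Basal, 189 in Suprabasal, 71.2 in Anal Canal and 71.0 in Rectum. The part of any remaining follicle cells in the Krt15 level was not tested. Rectum cells, which should lack all 3, held 29.8 CPM of Krt5 (21 UMIs), 95.1 CPM of Krt14 (67 UMIs) and 29.8 CPM of Krt15 (21 UMIs). The log2 ratios of Rectum over Basal were -6.15 (-6.85 to -5.54) for Krt5, -5.83 (-6.20 to -5.48) for Krt14 and -6.59 (-7.29 to -5.98) for Krt15, so all 3 were lower past a fold of 2, as were 17.1% of the 9366 genes tested. With the deposited whole numbers in place of the UMI counts Krt5 was at -4.23, Krt14 at -4.58 and Krt15 at -5.48. No neighbours in the order of the 4 clusters had overlapping intervals for any of the 3 genes. These intervals hold counting error and not the spread between cells or mice, so they do not settle the order.

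**Figure D1:**
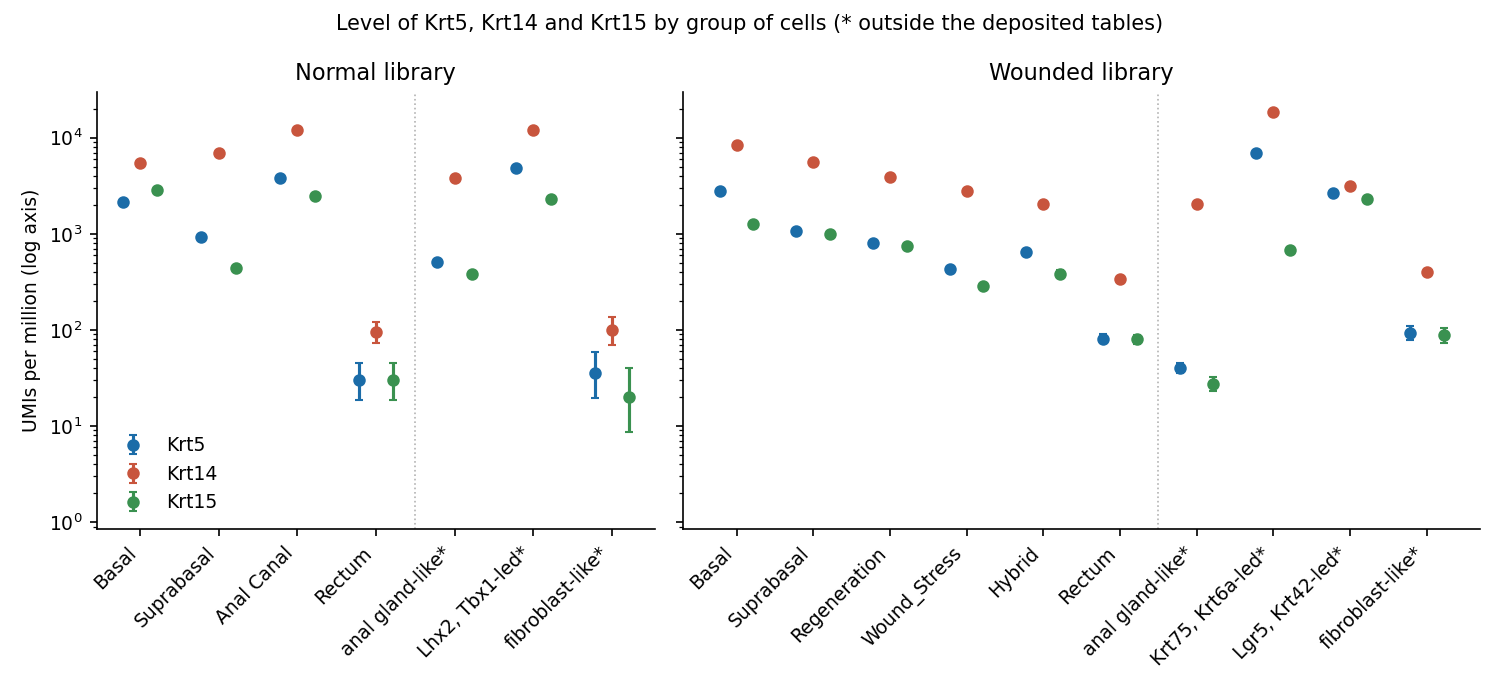
Level of Krt5, Krt14 and Krt15 in CPM (log axis) by group of cells, with exact 95% Poisson intervals where they exceed the symbol; groups with an asterisk were outside the deposited tables. Krt14 lay above Krt5 and Krt15 in every group drawn, and Rectum and fibroblast-like cells sat lowest, joined by the wounded anal gland-like cells for Krt5 and Krt15 only.

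From Basal to Suprabasal cells of the normal TZ the 3 keratins parted. Krt15 fell 6.56-fold, a log2 ratio of -2.71 (-2.81 to -2.62), and Krt5 fell 2.28-fold, a log2 ratio of -1.19 (-1.26 to -1.12). Krt14 was 1.27-fold higher in Suprabasal, a log2 ratio of 0.35 (0.32 to 0.38). So 2 of 3 were lower by more than a fold of 2, against 17.1% of 9682 genes, between clusters that were formed from these same counts. The median gene with at least 50 UMIs in both clusters was at -0.16, and relative to it the log2 ratios were -2.56 for Krt15, -1.04 for Krt5 and 0.51 for Krt14. With median-of-ratios scaling Krt5 was at -0.89, inside the fold.

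A list of 15 other genes of the basal layer was mostly lower in these Suprabasal cells. Of the 15, 10 were lower past a fold of 2, 1 was higher and 4 were within the fold, with a median log2 ratio of -1.31 against -0.29 over all genes tested. Col17a1, the hemidesmosomal collagen, was at -2.15, Dst, which ties keratin filaments to hemidesmosomes, at -2.77, and Trp63, the transcription factor of stratified epithelial fate, at -1.16. Cd44, a hyaluronan receptor, was the higher gene at 1.06. Of 16 suprabasal and differentiation genes, 13 were tested and 12 were higher, with a median of 2.88. Krt79, a keratin of hair follicle ducts, was at 3.99, Cst6, a protease inhibitor of stratified epithelia, at 5.92, and Krt17 at 2.05. Krt14 therefore stood with neither list.

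Within the normal TZ the 3 keratins were also followed along Cst6. Basal and Suprabasal cells were thinned to 2000 UMIs and pooled by their number of Cst6 UMIs, with Cst6 itself left out of the totals. This grouping was chosen after the data were seen. Cst6 itself separated the clusters, with a thinned mean of 2.81 UMIs in Basal and 148 UMIs in Suprabasal. The bins thus largely repeat the clusters and are no separate support for the ratios between them. Krt15 had 2819.85 CPM in the 136 cells without Cst6, 3055 with 1 to 9 UMIs, 649 with 10 to 49, 454 with 50 to 149 and 81.4 in the 60 cells with 150 or more. Krt5 had 2180.2, 2162, 1575, 1063 and 122 CPM in the same bins. Krt14 had 5379, 5165, 7075, 7385 and 7342 CPM. Krt15 thus dropped between the second and the next bin, Krt5 went down more gradually, and Krt14 ended above where it began. The wounded Suprabasal cluster, split in the same way, had the same order of change. Its 336 cells without Cst6 held 2424 CPM of Krt15, 1804 CPM of Krt5 and 4374 CPM of Krt14, and its 156 cells with the most Cst6 held 54.2, 124 and 6495 CPM. Across the 1020 thinned cells of that cluster, Pearson's r with Cst6 was -0.65 for Krt15 and -0.61 for Krt5. In normal Suprabasal it was -0.44 for Krt15 and -0.63 for Krt5, the other way round. In normal Basal it was -0.02 for Krt15 and -0.05 for Krt5. Each r is a description of cells that share 1 library and depth.

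**Figure D2:**
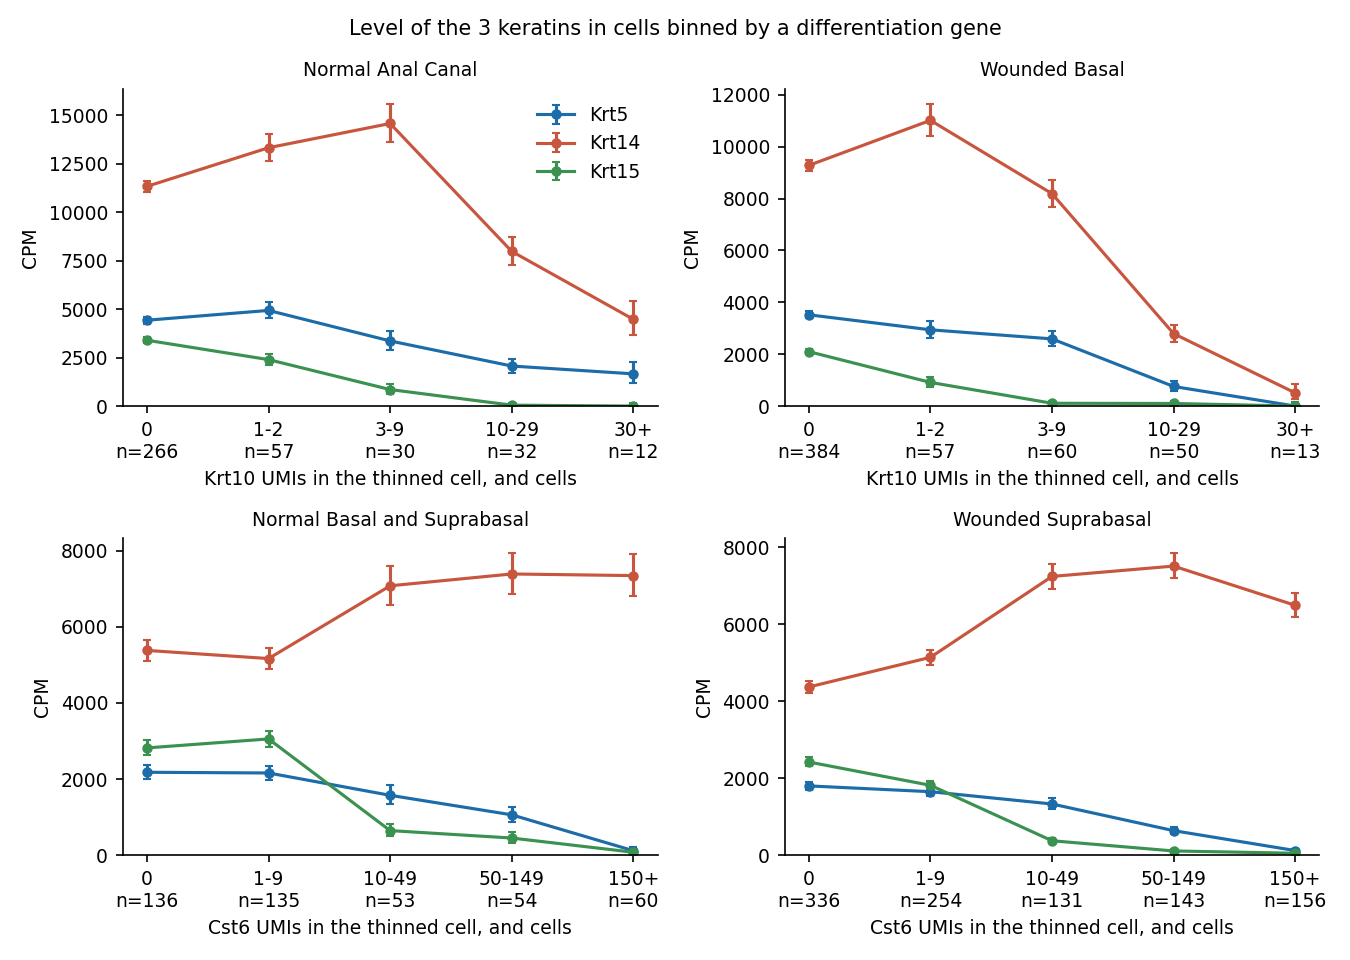
Krt5, Krt14 and Krt15 in CPM, with exact 95% Poisson intervals, in cells thinned to 2000 UMIs and binned by their UMIs of Krt10 (upper panels) or Cst6 (lower panels), with n cells under each bin. By the third bin of each panel Krt15 stands at a smaller part of its starting level than Krt5 does, and Krt14 ends above its starting level along Cst6 but below it along Krt10.

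Anal Canal cells held basal layer genes at levels near those of TZ Basal cells, and Krt1 and Krt10 beside them. Over normal Basal, Krt14 was 2.20-fold higher, a log2 ratio of 1.14 (1.11 to 1.16), Krt5 was at 0.85 (0.81 to 0.89) and Krt15 at -0.21 (-0.25 to -0.17). Krt14 alone of the 3 was higher past a fold of 2, as were 8.73% of 10571 genes. Of the 15 basal layer genes, 2 were higher (Itga3 at 1.14 and Cd44 at 1.10), 13 were within the fold and none was lower. Of the 16 differentiation genes 11 were higher and 3 lower, with a median of 3.73. Krt10 was found in 33.0% of the thinned cells of this cluster, and the 3 keratins were followed along it. The change was graded, as Krt5 and Krt14 were each still found in 90.6% of cells with 10 to 29 Krt10 UMIs.

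Along Krt10, a keratin of cells that have left the basal layer, Krt15 went down more steeply than Krt5. In thinned Anal Canal cells it had 3395 CPM in 266 cells without Krt10, 2396 CPM with 1 to 2 Krt10 UMIs, 852 with 3 to 9 and 47.3 with 10 to 29. No Krt15 UMI was found in the 12 cells with 30 or more, a bin of under 20 cells, which allows up to 128 CPM. Krt5 had 4429, 4933, 3359, 2066 and 1662 CPM in these bins, so it remained in cells with no Krt15. Krt14 had 11331, 13324 and 14574 CPM in the first 3 bins and 7979.9 and 4476 CPM beyond them. The correlation across 397 cells was -0.45 between Krt15 and Krt10, -0.37 between Krt5 and Krt10 and -0.20 between Krt14 and Krt10.

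Wounded clusters held the 3 keratins at graded levels, with Basal at the top. Krt5 had 2770.1 CPM in Basal, 1077 in Suprabasal, 795 in Regeneration, 647 in Hybrid, 433 in Wound_Stress and 81.3 in Rectum. Krt14 had 8434, 5594, 3912, 2061, 2815 and 340 CPM in the same clusters, and Krt15 had 1259, 983, 747, 384, 287 and 80.3 CPM. Basal, Suprabasal and Regeneration kept this order for each keratin, whereas Hybrid lay above Wound_Stress for Krt5 and Krt15 and below it for Krt14. No neighbours in these orders had overlapping intervals, which again hold counting error alone. The ratios that follow share the wounded Basal cells as their denominator.

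Krt5 was the keratin that separated wounded Suprabasal from Basal. Its log2 ratio was -1.36 (-1.40 to -1.33), against -0.59 (-0.61 to -0.58) for Krt14 and -0.36 (-0.40 to -0.31) for Krt15, so 1 of 3 was lower past a fold of 2 with 11.3% of 12291 genes. The median gene was at -0.18, and Krt15 relative to it was also at -0.18. Of the basal layer list 3 genes were lower and 1 was higher (Sdc1, a syndecan, at 1.36). Wounded Basal cells themselves held many transcripts of the suprabasal list, with 1987 CPM of Krt10 and 2473 CPM of Krt1. Their 6 suprabasal markers summed to 7843 CPM, close to the 8511 CPM of normal Anal Canal and far above the 387 CPM of normal Basal. A part of the cells named Basal in the wounded library thus carried differentiation keratins, and their part in each ratio was not tested.

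In Regeneration cells Krt5 was at -1.80 (-1.84 to -1.76) over wounded Basal, Krt14 at -1.11 (-1.13 to -1.09) and Krt15 at -0.75 (-0.80 to -0.71). Krt5 and Krt14, 2 of the 3, were lower past the fold, with 13.8% of 12332 genes. Relative to the median gene at -0.15 Krt14 was at -0.96, and with median-of-ratios scaling at -0.93, which ends its call. Wound_Stress cells had still less, with Krt5 at -2.68 (-2.73 to -2.62), Krt14 at -1.58 (-1.61 to -1.56) and Krt15 at -2.13 (-2.20 to -2.06). All 3 passed the fold there, as did 12.8% of 11833 genes. Anal gland markers, a list of 10 genes that the study drew from these samples, summed to 5114 CPM in Regeneration and 4399.5 CPM in Wound_Stress against 377 CPM in wounded Basal, and their part in the lower keratin levels was not tested. The basal layer list had 5 lower genes of 15 in Regeneration and 4 in Wound_Stress, and none higher, with medians of -0.67 and -0.80 against -0.13 and 0.03 over all genes tested. Trp63 was at 0.02 and 0.01 and Itga6, the integrin partner of Itgb4 in hemidesmosomes, at 0.15 and 0.07. These 2 genes thus lay above the median of their list in both clusters.

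Hybrid cells were the shallowest, with a median of 2390 UMIs against 9075 UMIs in wounded Basal. Krt5 was at -2.10 (-2.19 to -2.003), Krt14 at -2.03 (-2.09 to -1.98) and Krt15 at -1.71 (-1.84 to -1.59) over Basal, and all 3 passed the fold with 6.76% of 11201 genes. The median gene was at 0.17. Krt14 was at -1.36 as a mean of per-cell values, and Krt15 was at -2.57 in cells with at least 4000 UMIs. Markers of enteroendocrine cells summed to 18801 CPM in this cluster, with all 5 detected, and inner root sheath markers summed to 1762 CPM with all 6 detected. The cluster thus held transcripts of other cell types, and their part in the keratin levels was not tested.

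Rectum cells of the wounded library were again lowest, with Krt5 at -5.09 (-5.25 to -4.93), Krt14 at -4.63 (-4.71 to -4.55) and Krt15 at -3.97 (-4.13 to -3.81) over Basal, all 3 past the fold with 12.3% of 11902 genes. A few cells held most of these UMIs. The 10 richest of 397 cells carried 67.7% of the Krt5, 53.8% of the Krt14 and 84.5% of the Krt15 UMIs. Without the cells of highest doublet score the ratios were -5.97, -5.43 and -5.12, and with the deposited whole numbers they were -4.43, -4.03 and -3.85.

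**Figure D3:**
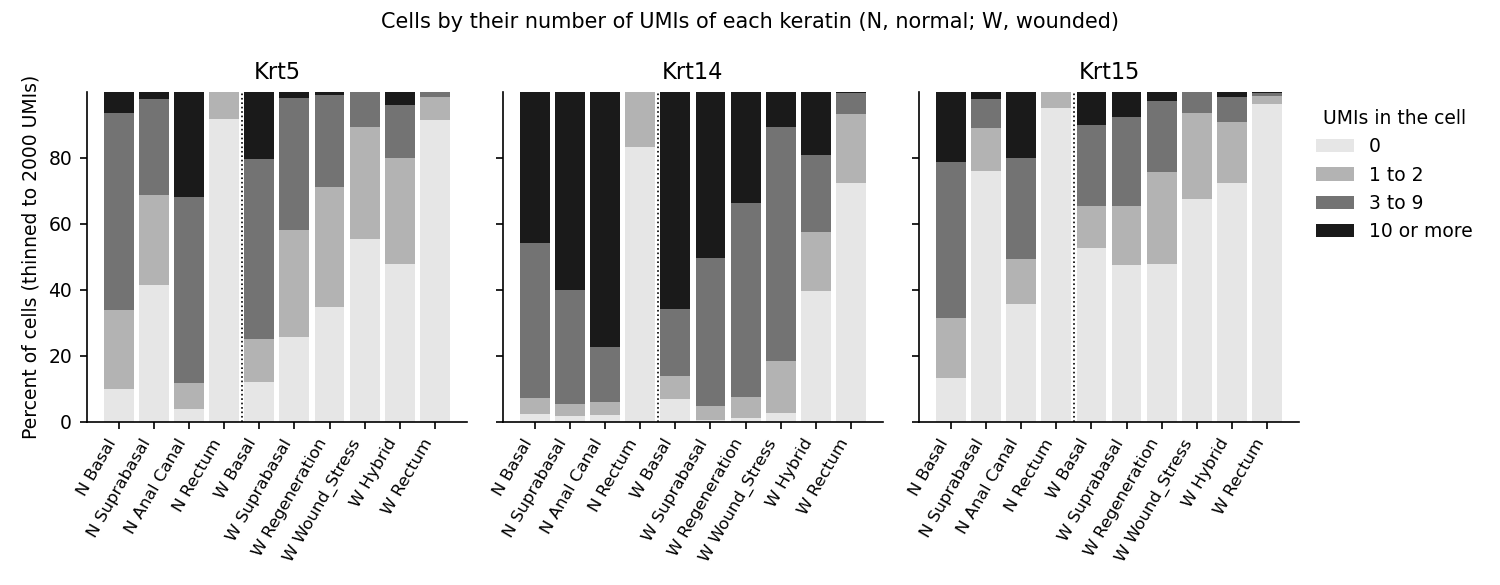
Share of cells, after thinning each to 2000 UMIs, with 0, 1 to 2, 3 to 9 and 10 or more UMIs of Krt5, Krt14 and Krt15 in the named clusters of the normal (N) and wounded (W) library. Cells without Krt15 made up 13.3% of normal Basal and 52.7% of wounded Basal, whereas cells without Krt14 were rare outside Hybrid and Rectum.

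Setting clusters of the same name side by side, Krt15 moved in opposite directions in Basal and Suprabasal. In Basal it was lower in the wounded library, 1259 against 2878 CPM, a log2 ratio of -1.19 (-1.24 to -1.15). In Suprabasal it was higher, 983 against 439 CPM, a log2 ratio of 1.16 (1.07 to 1.26). Other basal layer genes moved with it there, 7 of 15 being higher and none lower with a median of 0.99 against 0.14 over all genes tested, and 6 suprabasal markers summed to 4489 CPM in wounded and 10201 CPM in normal Suprabasal. Hair follicle markers summed to 328 CPM in wounded and 189 CPM in normal Suprabasal, and to 58.5 CPM in wounded and 404 CPM in normal Basal. The part of these genes and cells in the Krt15 ratios was not tested. Krt14 was at 0.64 (0.62 to 0.67) in Basal and -0.30 (-0.32 to -0.27) in Suprabasal, and Krt5 at 0.38 (0.34 to 0.43) and 0.21 (0.15 to 0.28). Krt15 was the only member past a fold of 2 in either, lower in Basal with 13.6% of 11035 genes and higher in Suprabasal with 16.2% of 11430 genes. The median gene was at -0.20 in Basal and -0.11 in Suprabasal, which leaves Krt15 at -0.99 and 1.28. As a mean of per-cell values Krt15 in Basal was at -0.97, inside the fold.

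The cell-level counts gave the same picture of Krt15. After thinning, 13.3% of normal Basal cells had no UMI of Krt15 and 21.2% had 10 or more, against 52.7% and 10.1% in wounded Basal. As a group these wounded cells were nearer to normal Anal Canal than to normal Basal in Krt10 and Krt17, with Krt17 at 381 CPM against 704 CPM in Anal Canal and 2265 CPM in normal Basal. Wounded Basal was therefore also set against normal Anal Canal, a choice made after those levels were seen. Krt5 was then at -0.47 (-0.50 to -0.44), Krt14 at -0.49 (-0.51 to -0.48) and Krt15 at -0.99 (-1.03 to -0.94), none past a fold of 2. Of the basal layer list 14 of 15 genes were within the fold in this comparison, and 12 of 16 differentiation genes were, near the share over all genes, of which 10.2% were higher and 7.02% lower past the fold.

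Along Krt10 Krt15 also went down more steeply than Krt5 in the wounded Basal cells. Krt15 had 2099 CPM in 384 cells without Krt10, 913 with 1 to 2 UMIs, 109 with 3 to 9 and 101 with 10 to 29. Krt5 had 3519.5, 2940.4, 2590.4 and 756 CPM in these bins and Krt14 had 9279.95, 11016, 8189 and 2794 CPM. In the 13 cells with 30 or more Krt10 UMIs, a bin of under 20 cells, neither Krt5 nor Krt15 had a UMI, which allows up to 117 CPM each, and Krt14 had 509 CPM. Among cells without Krt10, Krt15 was thus at 2099 CPM in wounded Basal and 3395 CPM in normal Anal Canal.

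In Rectum all 3 keratins were higher in the wounded library, Krt5 at 1.45 (0.81 to 2.16), Krt14 at 1.84 (1.48 to 2.21) and Krt15 at 1.43 (0.79 to 2.14), and all passed the fold with 11.6% of 10197 genes. Without the cells of highest doublet score Krt5 was at 0.69 and Krt15 at 0.39, and as a mean of per-cell values Krt5 was at 0.18. Only Krt14 stayed past the fold under every alternative. Barcodes that failed the filters held 1422 CPM of Krt14 in the normal and 641 CPM in the wounded library.

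The proportion of the 3 genes does not depend on scaling. Krt14 supplied 51.9% of their UMIs in normal Basal, 65.3% in Anal Canal and 83.4% in Suprabasal. Krt15 supplied 27.7%, 13.7% and 5.32%, and Krt5 20.4%, 21% and 11.3%. Normal Basal was the named cluster richest in Krt15 by this measure, and it was the only named cluster apart from normal Rectum, where Krt5 and Krt15 were level, in which Krt15 was not below Krt5 by its UMIs. In the wounded library Krt14 ran from 66.6% in Hybrid to 79.6% in Wound_Stress, Krt5 from 12.2% in Wound_Stress to 22.2% in Basal and Krt15 from 8.11% in Wound_Stress to 16% in Rectum. Normal fibroblast-like cells, which should lack the genes, had 23% Krt5, 63.9% Krt14 and 13.1% Krt15 from 61 UMIs. Normal barcodes outside the filter had 20.7%, 63.6% and 15.7%, and all filtered normal cells had 19.4%, 66.3% and 14.3%. The fibroblast-like proportions were thus near both. Among the barcodes outside the filter, the 10 richest for each gene carried 58.1% of the Krt5, 52.2% of the Krt14 and 51.8% of the Krt15 UMIs.

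**Figure D4:**
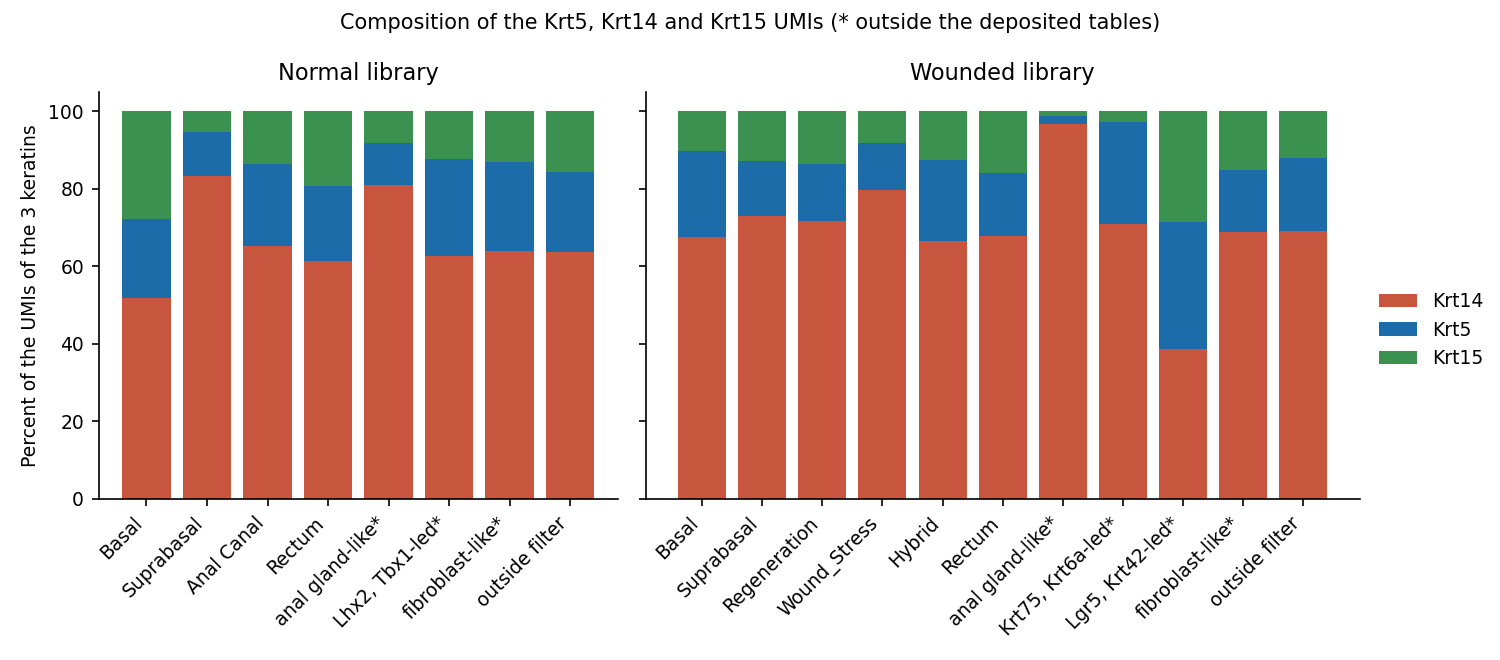
Percent of the summed Krt5, Krt14 and Krt15 UMIs that each gene supplied, by group of cells; groups with an asterisk were outside the deposited tables. Of the groups drawn, normal Basal and the wounded group led by Lgr5 and Krt42 have the largest green (Krt15) parts, and the wounded anal gland-like cells have almost only Krt14.

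Krt5 was measured against the other type II keratins that its partners could pair with. Among 24 type II genes it supplied 74.8% of the UMIs in normal Basal but 10.2% in Suprabasal, where Krt79 supplied 68.3% and Krt6a 14.7%. In Anal Canal Krt5 supplied 40.4%, Krt1 24.1% and Krt6a 18.2%. Wounded Basal had 36.5% Krt5 and 32.6% Krt1, which is nearer to normal Anal Canal than to normal Basal. Wounded Suprabasal had 18.3% Krt5 and 59.6% Krt79, whereas Krt5 led in Regeneration with 63.7% and in Wound_Stress with 53.5%. Krt5 was thus the leading type II keratin in 6 of the 10 named clusters, the exceptions being both Suprabasal clusters and, with Krt8 at 92.6% and 78.0%, both Rectum clusters.

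Among 25 type I genes Krt14 led in all stratified clusters but the Suprabasal pair. It supplied 50.4% of type I UMIs in normal Basal, 62.5% in Anal Canal, 59.6% in wounded Basal, 67.9% in Regeneration and 84.8% in Wound_Stress. In both Suprabasal clusters Krt17 was ahead, with 55.1% and 51.2% against 40.3% of Krt14 in each. Krt15 supplied 26.9% of type I UMIs in normal Basal and 2.57% in normal Suprabasal. Type I UMIs outnumbered type II UMIs in normal Basal, 10712 against 2839 CPM. Krt14 and Krt17 share a run of bases near the 3′ end, and whether this affected their balance was not tested.

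**Figure D5:**
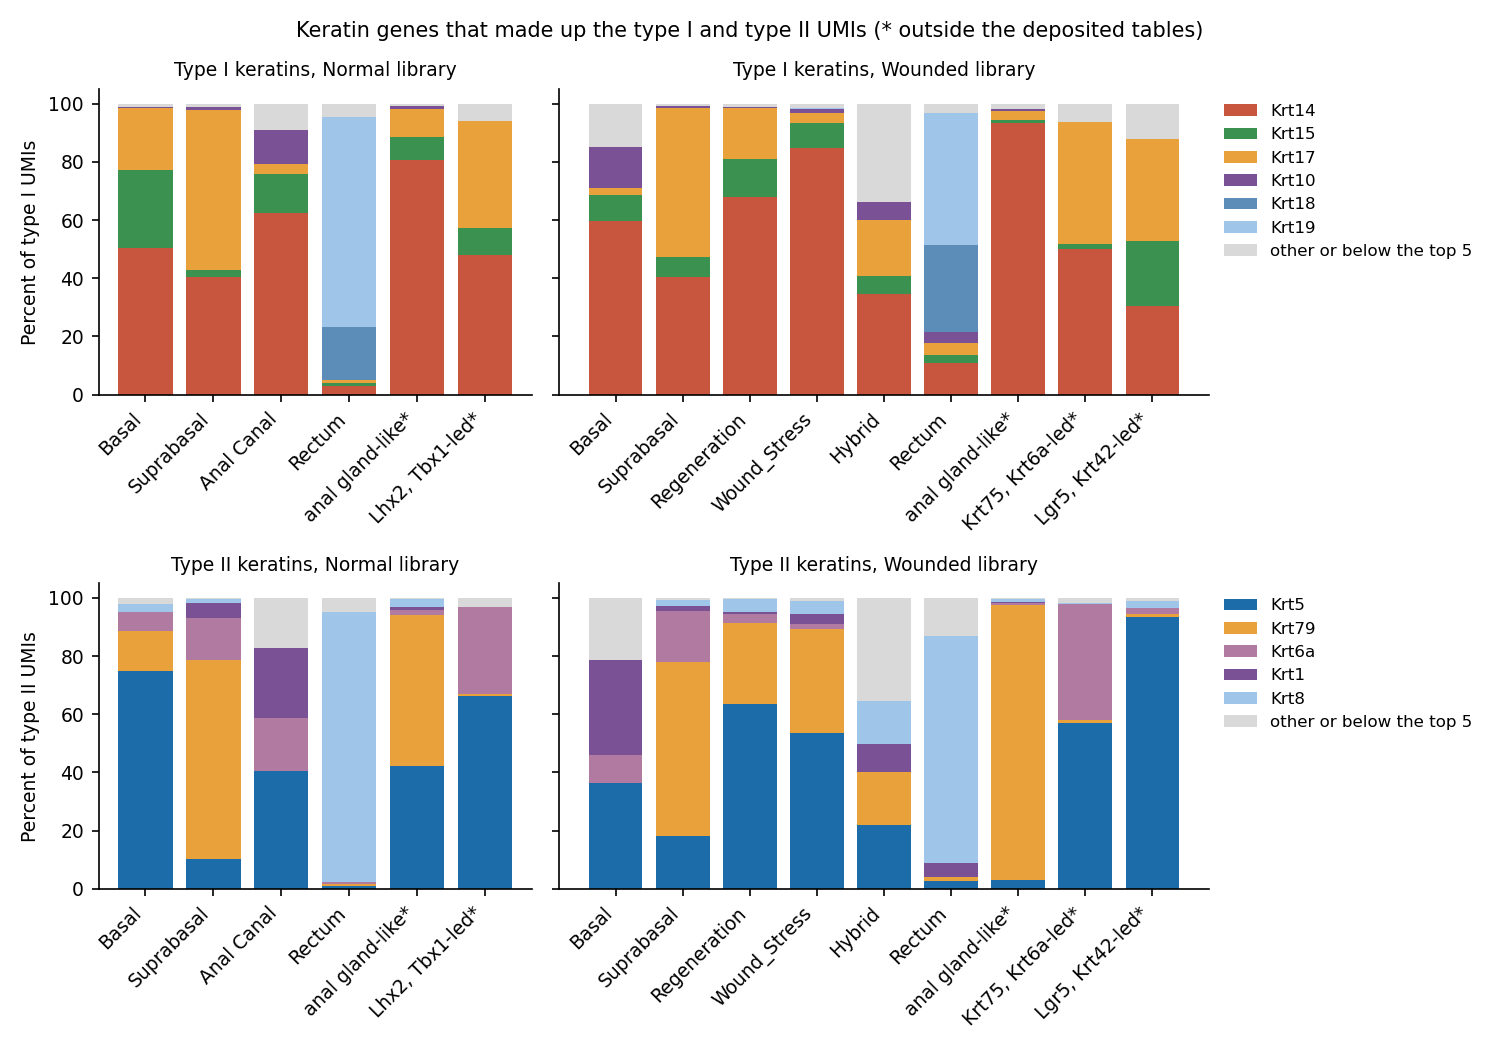
Percent of the type I (upper) and type II (lower) keratin UMIs that each named keratin gene supplied, by group of cells; grey holds all other keratins and those outside the 5 most abundant of a group. Krt14 and Krt5 fill most of the bars in normal Basal, Regeneration and Wound_Stress, Krt5 and Krt1 share the type II bar of wounded Basal, and Krt17 and Krt79 fill most of them in both Suprabasal clusters.

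Single cells were compared after thinning to 2000 UMIs. A UMI of Krt14 was found in 97.6% of normal Basal (94.9 to 99.1), 98.4% of Suprabasal (95.3 to 99.7) and 98% of Anal Canal cells. Krt5 was found in 90.2%, 58.5% and 96.2% of them and Krt15 in 86.7%, 24% and 64.2%. Rectum gave the background at 16.7% for Krt14, 8.33% for Krt5 and 5% for Krt15, and fibroblast-like cells gave 19%, 8.62% and 3.45%, at median depths of 10885 and 6120 UMIs before thinning. Every share in the stratified clusters was above that background. Before thinning the shares for Krt15 were 94.6%, 50.8%, 74.1% and, in Rectum, 22.2%. In the wounded library Krt15 was found in 47.3% of Basal, 52.4% of Suprabasal, 52% of Regeneration, 32.4% of Wound_Stress, 27.7% of Hybrid and 3.67% of Rectum cells. Thinning left out 132 of the 316 Hybrid cells.

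Most normal Basal cells held all 3 keratins, 82.4% (77.1 to 86.8), against 18% of Suprabasal and 62.5% of Anal Canal cells. Cells with Krt14 alone made up 34.4% of normal Suprabasal and 3.53% of Basal, and those with Krt5 and Krt14 but no Krt15 made up 39.9% and 7.45%. In the wounded library all 3 were found in 44.9% of Basal, 48.7% of Suprabasal, 45% of Regeneration and 21.8% of Wound_Stress cells. Wound_Stress had the largest share with Krt14 alone among the named clusters, 43.2% (39.7 to 46.6). Shares with Krt14 alone depend on depth. Before thinning Krt5 was found in 68.5% and Krt15 in 54.5% of Wound_Stress cells, against 44.6% and 32.4% after it. In normal Suprabasal these shares were 79.1% and 50.8% before thinning and 58.5% and 24.0% after it. No normal Rectum cell of 60 held all 3, which allows a share of up to 5%, and 5 of 354 wounded Rectum cells did.

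Across the cells of a cluster Krt5 went more closely with Krt15 in normal Basal and both Suprabasal clusters, and more closely with Krt14 in normal Anal Canal and wounded Basal. These are Pearson correlations of log2(count + 1) in thinned cells of 1 library, given as a description. Krt5 and Krt15 were at 0.39 in normal Basal (n = 255), 0.30 in normal Suprabasal, 0.46 in wounded Suprabasal and 0.53 in Regeneration. In the same clusters Krt5 and Krt14 were at 0.30, 0.10, -0.004 and 0.25, so the difference was small in normal Basal. Krt5 and Krt14 were at 0.48 in normal Anal Canal and 0.64 in wounded Basal (n = 564), where Krt5 and Krt15 were at 0.14 and 0.28. Krt14 and Krt15, which could both pair with Krt5, were near 0 or below it in normal Basal (0.08), Anal Canal (-0.12), normal Suprabasal (-0.16), wounded Basal (-0.02) and wounded Suprabasal (-0.26). They were positive in Regeneration (0.17), Wound_Stress (0.22), wounded Rectum (0.25) and Hybrid (0.46), and at 0.09 in normal Rectum. In normal Suprabasal Krt14 and Krt17 were at 0.00.

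The variance over the mean of thinned counts was larger for Krt14 and Krt15 than for Krt5, a measure that can rise with the level. It was 2.35 for Krt5, 5.27 for Krt14 and 5.14 for Krt15 in normal Basal, and 3.72, 12.1 and 10.1 in Anal Canal. Wounded Basal had 3.41, 10.5 and 8.51. In normal Basal the means were 4.29, 10.46 and 6.12 and the standard deviations 3.18, 7.42 and 5.61. Relative to its mean, the spread of Krt14 there was thus near that of Krt5, and Krt15 had the widest. In raw counts the median cell of normal Basal held 18 UMIs of Krt5, 40 of Krt14 and 21 of Krt15, and the richest cells held 120, 321 and 212. In normal Suprabasal 10 of the 187 cells carried 57.7% of all Krt15 UMIs, so the level there rests on few cells.

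Krt8, the glandular keratin, was sought together with the basal keratins because the study names 1 wounded cluster Hybrid. Among 184 thinned Hybrid cells, 29 held Krt8 and at least 1 of the 3 keratins, 15.8% (10.8 to 21.8), and 21 held Krt8 without them. In other clusters the share was 17.6% (15.4 to 20.1) in wounded Suprabasal, 19.7% (14.2 to 26.2) in normal Suprabasal, 25% (14.7 to 37.9) in normal Rectum and 27.7% (23.1 to 32.7) in wounded Rectum, and it was 8.63% (5.49 to 12.8) in normal Basal, 9.63% (7.87 to 11.6) in Regeneration and 3.55% (2.18 to 5.42) in wounded Basal. It was 6.48% (4.89 to 8.39) in Wound_Stress and 2.52% (1.21 to 4.58) in normal Anal Canal. The interval of the Hybrid share thus overlaps those of both Suprabasal clusters, normal Rectum, normal Basal and Regeneration. It lies above those of wounded Basal, Wound_Stress and Anal Canal and below that of wounded Rectum. Nearly all Suprabasal cells held Krt14, so their shares were close to those with Krt8, 17.7% in wounded and 19.7% in normal Suprabasal. In Hybrid Krt8 was found in 27.2% of cells. In wounded Rectum 87 of the 98 cells with Krt8 and a basal keratin held Krt14. With those 21 included, 57 of the 184 Hybrid cells (31%) held none of the 3 basal keratins.

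Groups of cells outside the deposited tables extended the range of the 3 keratins. Normal anal gland-like cells (330 cells) held 513 CPM of Krt5, 3805 of Krt14 and 380 of Krt15, and wounded anal gland-like cells (375 cells) held 40.3, 2034 and 27.5 CPM. At resolution 0.4 of the clustering the normal group held 269, 2744 and 243 CPM. The wounded cells thus had Krt14 nearly alone, as 96.8% of the UMIs of the 3 keratins. After thinning, 89.6% of them (86.1 to 92.5) held Krt14 with neither Krt5 nor Krt15. Krt5 was found in 4.27% (2.46 to 6.84) and Krt15 in 2.40%, no more than the 6.11% and 2.78% of wounded fibroblast-like cells, and 10 cells carried 79.1% of the Krt5 UMIs. Krt14 was found in 95.7% of these cells and in 14.4% of fibroblast-like cells. Their main type II keratin was Krt79, with 1264 CPM and 94.6% of type II UMIs, where normal anal gland-like cells had 51.9% Krt79 and 42.2% Krt5. A smaller wounded group of 52 cells, led by Akr1c18, Flrt1 and Il33 and left without a cell type name, had the same pattern with 53.5, 1939 and 46.4 CPM and Krt79 at 87.4% of type II UMIs.

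The highest levels of Krt5 and Krt14 were also found outside the tables. A wounded group of 130 cells led by Krt6a, Krt75 and Rnase12 held 6859 CPM of Krt5 and 18314 CPM of Krt14, the most abundant gene of the group. It held 685 CPM of Krt15, which was 2.65% of the 3-keratin UMIs, and 10 cells carried 59.6% of it. Krt5 was found in all 128 of its thinned cells and Krt15 in 28.9% (21.2 to 37.6). A normal group of 184 cells led by Krt42, Krt6a, Lhx2 and Tbx1 held 4804 CPM of Krt5, 11917 of Krt14 and 2319 of Krt15. Krt14 was its most abundant gene too.

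Krt15 had a large share of the 3 keratins in a wounded group of 148 cells led by Nppc, Krt42 and Lgr5, the last a marker of hair follicle stem cells. Its levels were 2686 CPM of Krt5, 3145 of Krt14 and 2320.3 of Krt15, that is 33.0%, 38.6% and 28.5% of the 3. Krt5 supplied 93.4% of its type II UMIs, and Krt15 was found in 81.1% (73.7 to 87.2) of its thinned cells. Normal Basal had a like share of Krt15, 27.7%, with more Krt14. A normal group of 26 cells had 42.1% (34.8 to 49.7) from 75 UMIs of Krt15 and 73 of Krt14. Its richest cell held 68 of the Krt15 UMIs, and the richest for Krt14 held 53, so this share rests on very few cells. Endothelial markers summed to 2731 CPM in that group. Fibroblast-like cells held 35.5, 98.9 and 20.3 CPM in the normal and 93.6, 400.1 and 87.9 CPM in the wounded library. In the latter 10 of 192 cells carried 91.2% of the Krt5 UMIs, and under a filter of 10% mitochondrial UMIs the wounded levels were 43.8, 209.7 and 45.6 CPM.

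ZsGreen1, the reporter of cells in which K17CreERT2 had been active, was found in 13 Basal, 11 Suprabasal and 17 Anal Canal cells of the normal library and in none of 63 Rectum cells. The 13, 11 and 17 cells held 13, 11 and 19 ZsGreen1 UMIs in all. At counts this low, a cell without a UMI cannot be taken as one without the reporter. Cells with a ZsGreen1 UMI were deeper, with medians of 13340, 13076 and 14474 UMIs against 9802, 11372 and 8141 UMIs without one. Krt15 was lower in the cells with it, 1629 CPM (1447 to 1826) against 2967 CPM in Basal and 1340.0 CPM (1209 to 1482) against 2573 CPM in Anal Canal. In Suprabasal it was at 391 CPM (298 to 505) and 442 CPM, which overlap. Krt14 was higher with ZsGreen1 in Anal Canal, 15380.3 against 11638 CPM, and lower in Basal, 4841 against 5439 CPM. Krt5 was lower in Basal, 1707 (1521 to 1909) against 2152 CPM, and its intervals overlapped in Suprabasal and Anal Canal. Outside the tables, 34 cells with ZsGreen1 held more Krt5 than those without, 2499 (2349.5 to 2655) against 1393 CPM, more Krt14, 8035 against 5132 CPM, and less Krt15, 670.2 (594 to 753) against 821 CPM. Krt17, whose promoter drives the recombinase, was lower with ZsGreen1 in Basal (1935 against 2289 CPM) and Suprabasal (6922 against 9563 CPM). It was higher with ZsGreen1 in Anal Canal (978 against 685 CPM) and outside the tables (4627 against 2304 CPM). The levels in the named clusters rest on 11 to 17 cells, and the part of their greater depth was not tested. The intervals cover counting error and not the spread between cells. For Krt5 in thinned normal Basal cells that spread was a standard deviation of 3.18 UMIs around a mean of 4.29. Whether the differences with and without ZsGreen1 exceed the spread between cells was not tested.

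The genes with patterns most like the 3 keratins were found from log2(CPM + 10) over the 10 named clusters, among 7433 genes with at least 100 UMIs in each library. For Krt5 they were Phlda3 (r = 0.99), Tspan9 (0.99), Flna, which crosslinks actin (0.98), Bcam, a laminin receptor (0.97), and Krt15 (0.97). For Krt14 they were Ppp1r13l, Cd109, Atp1b3, Crip2 and Lgals7, a galectin of stratified epithelia, at 0.97 to 0.98. For Krt15 they were Cav1, the main protein of caveolae (0.97), Krt5 (0.97), Flna, Bcam and Ppp1r14c. Krt15 ranked 59 for Krt14 with r = 0.92, and Krt14 ranked 8 for Krt5. All 10 points come from 2 libraries, and the 2 Rectum clusters held the lowest levels of all 3 keratins.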

How the data were processed

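Sorted cells of each condition were sequenced as 1 library with the 10x Genomics 3′ protocol. The authors deposited raw UMI counts per gene and barcode (17617944 and 88260050 UMIs over 2564 and 17216 barcodes) on mm10. The count headers name Cell Ranger 3.1.0 for the normal and 4.0.0 for the wounded library, while the submitters' processing notes name 3.1.0 and Seurat 3.2.2. They also deposited 2 tables of named cells whose values, on a natural log scale, equal log(x + 1) of whole numbers x. The step behind those whole numbers is not given in the sources used here, so they served as names of cells and as 1 alternative. Every count column was matched to its library (0 left over).

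The filter of 200 to 5000 genes and under 25% mitochondrial UMIs was applied again and left 1548 and 5225 barcodes; 1 cell of the normal table failed it. Levels are pooled UMIs per 1000000 with exact Poisson intervals, log2 ratios have exact binomial intervals, and shares have Clopper-Pearson intervals, all at 95%. With 1 library per condition no test was run, cells were not treated as replicates, and a change means a fold of 2 among genes with at least 20 UMIs over both clusters. Cells were thinned at random to 2000 UMIs for shares, bins and correlations. Where a share is 0, its limit is 3 counts. All filter-passing cells of each library were clustered with Seurat 5.3.0 in R 4.3.3 (10 principal components, resolution 0.2). The 3 keratins and the listed genes were left out of the variable features. Cells outside the tables were then grouped by the cluster they fell in, which could also hold cells of the tables. Groups of at least 20 such cells were compared with the other cells outside the tables and named only for anal gland and fibroblast marker lists, with a mean log2 ratio above 1. Scrublet in scanpy 1.11.5 called 4 and 0 cells with its automatic threshold, so no doublet was removed, and the 93 and 314 highest scores were left out as an alternative. On counts simulated with counting error alone, Suprabasal over Basal recovered the direction of 199 of 200 changed genes in the normal library (9682 genes, 174 intervals without 0, 96.2% of intervals holding the truth). It recovered 199 of 200 in the wounded library (12291 genes, 177, 95.6%). Such a draw holds no spread between cells and sets the coverage near 95% in advance. It checks the calculation and cannot show how well the intervals suit the real cells. Sequences were read from GENCODE M21 transcripts.

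The members, lists and tests were chosen with earlier results of these data known, and the anal gland list came from the study's table of these samples. Genes named are the 3 keratins, the basal layer and differentiation lists, the 5 most like genes, Krt8, Krt17, Krt6a, Cd34, Mki67, ZsGreen1 and marker genes. Cd34 was found in at most 5.49% and Mki67 in 3.28% to 22.8% of the thinned cells of a named cluster, and no correlation of them with a member passed 0.3 except Krt15 with Mki67 in normal Suprabasal (0.30). The bins by Krt10 and Cst6, the shares among type I and type II keratins and wounded Basal over normal Anal Canal were chosen after the data were seen.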

Additional observations from a re-analysis of the deposited data

Results flagged for a closer look

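Krt14 differed in direction between libraries from Basal to Suprabasal, with a log2 ratio of 0.35 in the normal and -0.59 in the wounded library. The cells named Basal were unlike, as 6 suprabasal markers summed to 387 CPM in normal and 7843 CPM in wounded Basal. In normal Anal Canal they summed to 8511 CPM, and Krt14 there was at 11880.4 CPM, above the 6877 CPM of normal Suprabasal. The difference in direction, and the part of the unlike Basal cells in it, was not tested. Wounded over normal, Krt14 was at 0.64 in Basal and -0.30 in Suprabasal, and Krt15 was at -1.19 in Basal and 1.16 in Suprabasal, again opposite directions that could not be tested with 1 library per condition. Barcodes outside the cell filter entered no log2 ratio. They held Krt14 at 1422 CPM in the normal and 641 CPM in the wounded library, above the 95.1 and 340 CPM of the Rectum cells.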

How the results depend on the processing

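No paired analysis was possible because each condition had 1 library, and for the same reason no replicate could be left out. Of 33 log2 ratios, 23 passed a fold of 2. None of the 33 changed sign under 6 alternatives, and 5 of the 23 fell inside the fold under at least 1. An alternative over 1.5 times away was seen for 11, all of them in Rectum or Hybrid. Those 6 did not include normal Anal Canal in place of normal Basal, a choice made after the data were seen. With it, wounded Basal went from 0.38 to -0.47 for Krt5 and from 0.64 to -0.49 for Krt14, a change of sign in both. Over Basal within a library 18 of 24 ratios passed the fold, and 16 to 18 did under the alternatives. Wounded over normal 5 of 9 passed, and 3 did with means of per-cell CPM, with the deposited whole numbers and without the cells of highest doublet score; these changes were in Krt15 of Basal and in Krt5 and Krt15 of Rectum, and the cause was not tested. Normal Rectum over Basal moved most with the deposited whole numbers, where Krt5 was at -4.23. The order Krt14, Krt5, Krt15 of detection held in 10 of 10 clusters and in 8 to 10 at other depths or another seed. Cells in anal gland-like and fibroblast-like groups numbered 962, and 595 at resolution 0.4 or 604 under 10% mitochondrial UMIs; normal anal gland-like Krt14 was then 2744 and 2870.2 CPM. Summed over 11 comparisons 15536 genes passed the fold, 7223 with a minimum of 100 UMIs and 27755 at a fold of 1.5, as fewer genes or a lower threshold entail. With a pseudocount of 1, 5 of the 15 most like gene names were kept. Thinning to 2000 UMIs limits single-cell shares to genes well above 1 UMI in 2000. Apart from Rectum, Krt15 had thinned means below that in normal Suprabasal (0.84 UMIs), Wound_Stress (0.58) and Hybrid (0.89). Krt5 did in Wound_Stress (0.84).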
